A study of Danio rerio with 9 samples.

Results

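The transcripts described here were gained in zebrafish primordial germ cells (PGCs) between 11 and 24 hours post fertilization (hpf). They are 122 of the 32266 annotated genes in the deposited table and were chosen by their measured level: an FPKM (fragments mapped to a gene, scaled for its length and for the sequencing of the library) of 5 or more in each of 24_1, 24_2 and 24_3, the cells at 24 hpf, and below 1 in at least 5 of the 6 cells from 6 and 11 hpf. Genes of 18 name families, among them ribosomal, proteasome, respiratory chain, actin, myosin light chain, troponin and hox genes, had been taken out, which removed 5 of the 127 genes that met both thresholds. Since the rule used these values, the levels at the 3 stages are a description of the set and not a finding about it.

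The cells came from AB strain embryos carrying a kop-egfp-nanos3-3'UTR transgene, in which a germline promoter drives a green fluorescent protein whose message is kept in PGCs by the nanos3 3'UTR. Green cells were drawn by hand into a capillary from embryos at shield (6 hpf), at 3 somites (11 hpf) and at prim-5 (24 hpf). Each stage gave 3 cells of 1 embryo, whose RNA was amplified and sequenced cell by cell, and the 9 cells are named 6_1 to 24_3. Because each stage is 1 embryo, every cell's value or the mean ± SD of its 3 cells is given, and no difference was tested. The embryos at 6 and 11 hpf were pipetted apart whole. The embryo at 24 hpf was anaesthetised, its head, tail and yolk were cut off and its trunk was minced first, so age, embryo and handling cannot be told apart.

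Zebrafish PGCs are set aside by inherited germ plasm, a maternal store of RNA and protein that holds nanos3, dnd1, ddx4 (vasa) and tdrd7a messages. They migrate through the embryo during the first day and meet the future gonad by about the last stage sampled here. Germ cells protect their genome with piRNAs, small RNAs that are loaded onto Piwi proteins in granules held together by Tudor domain proteins, and at a much later age they enter meiosis. A transcript that is new in a PGC at 24 hpf can thus belong to a germ cell programme, to the general work of a cell, or to a programme better known from somatic tissue.

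All 9 cells carried germ cell markers. The FPKM of nanos3 lay between 7573 and 24068 in the 9 cells, although part of it may come from the transgene, and ddx4 lay between 157 and 739.8. Summed over genes, a cell had between 548917 and 613048 FPKM. Of the genes at 1 FPKM or more in the other 8 cells, 19.0% were below 1 in 24_1, against 4.06% to 8.25% in the remaining cells, so a value of 0 can also be a transcript that was not captured. No read counts accompany the values, and the depth behind a single gene is unknown.

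**Figure D1:**
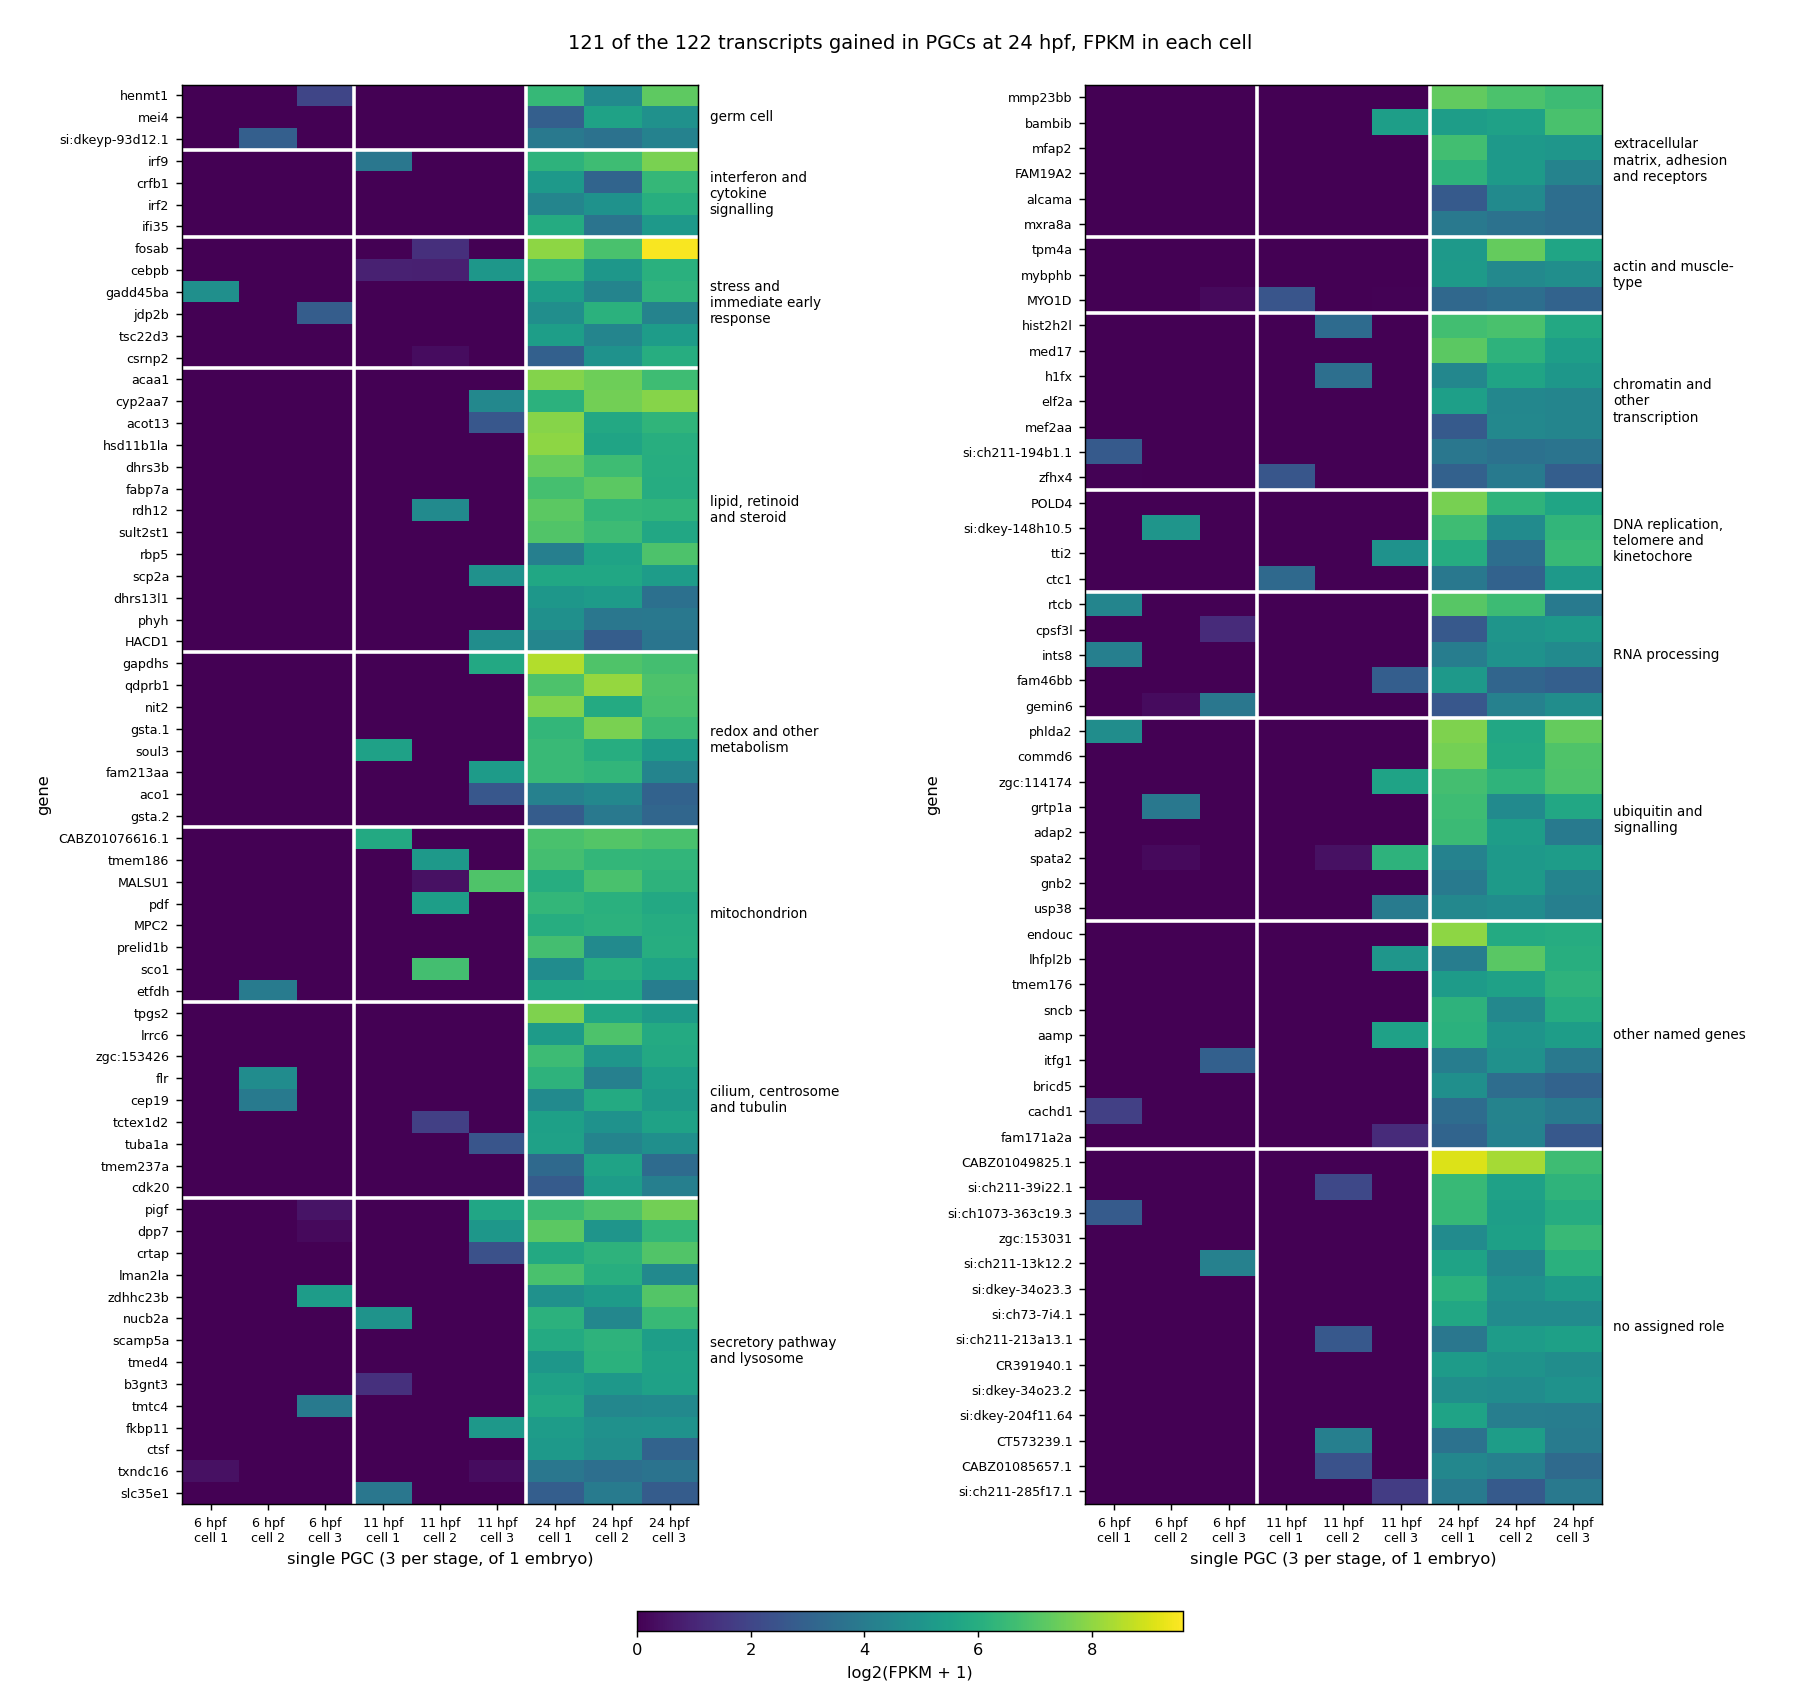
FPKM of 121 of the 122 gained transcripts in the 9 single PGCs, as log2(FPKM + 1) by colour, with genes in rows grouped by role and cells in columns (3 cells of 1 embryo per stage, white lines between stages). Of the 122 genes, 53 are listed at 0 in all 6 earlier cells, and the single earlier values of the others gather in cell 11_3, which holds 24 of 67.

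At 24 hpf the mean FPKM of a gained transcript had a median of 45.9 and ran from 8.64 to 364. Over all 2686 genes that reached 5 FPKM in each cell at 24 hpf, the median was 84.2. The gained transcripts made up 1.45%, 1.09% and 1.23% of the summed FPKM in 24_1, 24_2 and 24_3. In the 6 hpf cells they held between 0.0178% and 0.0182%, while the 11 hpf cells held 0.0320%, 0.0464% and 0.136%, with the highest share in 11_3. None of the 6 hpf cells listed a value above 0 for 94 of the 122 genes, and none of the 11 hpf cells for 74.

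Most genes that were well covered at 24 hpf had been seen before. Of the 2686 genes, 1596 were at 1 FPKM or more in all 6 earlier cells, and 461 in 5 of them. Only 59 were below 1 in all 6, and 68 reached it in 1 cell. The same thresholds with the stages exchanged and the same families removed gave 156 genes with 6 hpf as the high stage and 45 with 11 hpf, and likewise allowed 1 cell of another stage at any level.

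Among the gained transcripts, 55 were below 1 in every earlier cell and 67 had 1 earlier cell at or above it. That cell was at 11 hpf for 46 genes and at 6 hpf for 21. Cell 11_3 held it for 24 genes, 35.8% of the 67, while over all 370 filtered genes with a single such earlier cell 11_3 held it for 25.9%. The earlier values were seldom faint, with a median of 14.9 FPKM and a highest value of 122. The 5 highest belonged to MALSU1 (122 in 11_3), sco1 (105 in 11_2), spata2 (72 in 11_3), CABZ01076616.1 (56.4 in 11_1) and gapdhs (53.8 in 11_3). For MALSU1, sco1, spata2 and HACD1 the single early value was above all 3 values at 24 hpf, and for 24 genes it was above the lowest of them. These genes were thus not absent before 24 hpf in every cell.

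**Figure D2:**
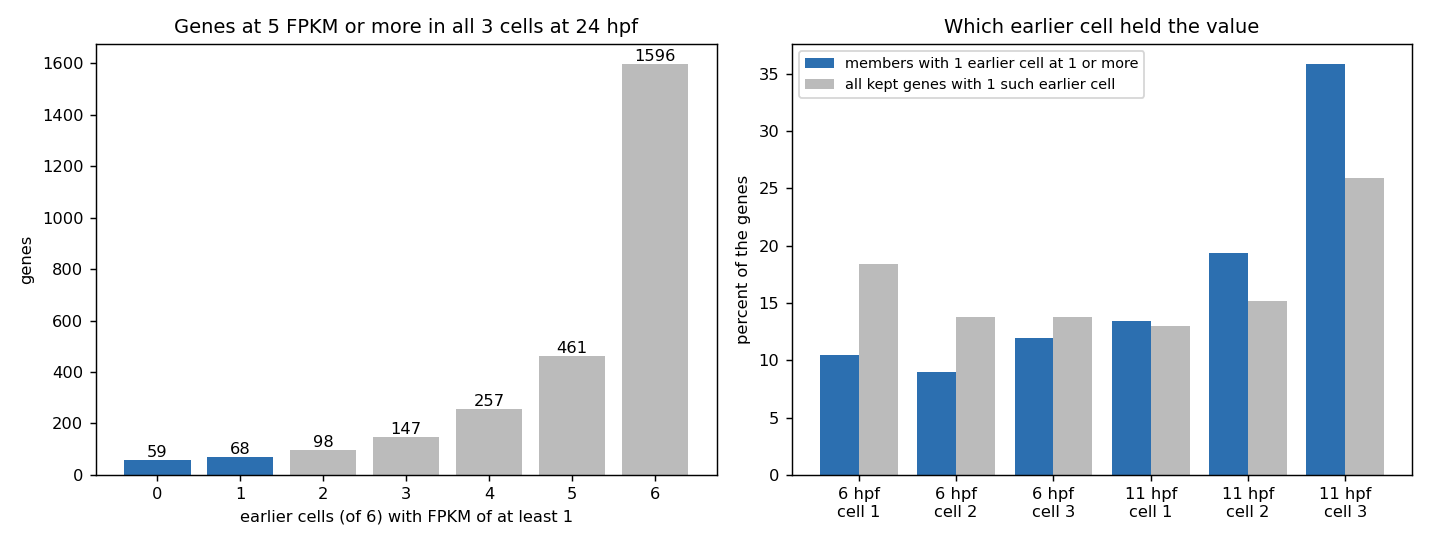
Left, the 2686 genes that reached 5 FPKM in each cell at 24 hpf by the number of earlier cells (0 to 6) with FPKM of at least 1, the rule's range in blue (127 genes before families were removed). Right, the earlier cell that held the single value of at least 1, as a percent of the 67 gained transcripts (blue) and of 370 filtered genes (grey), with 11_3 highest in both at 35.8% and 25.9%.

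A difference between 11 and 24 hpf was taken as log2 of the mean FPKM plus 1 at 24 hpf minus the same at 11 hpf, over the 9329 genes that reached 1 FPKM in 3 or more of the 9 cells. A gene was counted as higher or lower when the difference was at least 1 and the cells of both stages did not overlap. By the selection itself, 105 of the 122 were higher, where 7.89% of the 9329 genes were higher and 9.79% were lower. The set is 1.31% of those genes. The median difference of the gained transcripts was 4.78, from 0.32 to 8.31, against -0.08 over all 9329 genes, and it was larger than the spread of the cells for 98. The 17 genes that missed the count each had an 11 hpf cell as their single earlier one, 11_3 for 11 of them. Between 6 and 11 hpf the median difference of the set was 0.

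Germ cell genes took few places in the set. Of 42 germline genes that passed the filter, on 1 list of PGC and germ plasm genes and 1 of germ cell differentiation and meiosis genes, 3 were gained transcripts (7.14%, beside 1.31% of all filtered genes): henmt1, mei4 and h1fx. A Tudor domain gene without a name in the table, si:dkeyp-93d12.1, carries the newer symbol tdrd15 and joins them. Counted this way the 122 hold 4 such genes, but by role h1fx was grouped with chromatin genes, which leaves 3 in the germ cell group. Of the 122, 117 stood on neither a germline nor a somatic list.

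henmt1 encodes the enzyme that methylates the last nucleotide of a piRNA and so protects it from decay. Its FPKM was 85.4, 23.2 and 149.8 in 24_1, 24_2 and 24_3, the order used for all triplets of values from here on, and 2.98 in 6_3, with the other 5 earlier cells listed at 0. The lowest cell at 24 hpf was well above that single early value. mei4, whose mouse counterpart is needed to make the DNA breaks that start meiotic recombination, was listed at 0 in all 6 earlier cells and reached 6.44, 45.2 and 27.9. Its cells at 24 hpf differed 7-fold among themselves. tdrd15 was at 13.6, 11.4 and 18.3, and at 6.4 in 6_2 alone before that. h1fx, a linker histone (H1-10), was at 20.6, 47.1 and 33.3 and at 10.4 in 11_2.

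The established germ plasm genes stood at the other end. On the PGC and germ plasm list 31 genes passed the filter, and 10 of them (32.3%) were lower at 24 hpf while henmt1 and h1fx alone were higher, with a list median of -1.09. At 11 hpf nanos3 was at 24068, 20372 and 12389, and its values at 24 hpf were 8559.8, 7573 and 10351. In the same order of stages, dnd1, which shields germ plasm messages from miRNAs, was at 6955, 5362 and 2115 and 671, 1534 and 1678. ca15b was at 7041, 6307 and 2661 and 495, 2333 and 280.4. In these 3 genes no cell at 24 hpf reached the lowest cell at 11 hpf, yet even the lowest of these values at 24 hpf was above that of any germ cell gene gained. The oocyte-type linker histone h1m at 1157, 561 and 674 and the chemokine receptor cxcr4b at 777, 787 and 677 were the next most abundant at 24 hpf, with differences of -0.87 and -0.97 that missed the count.

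The partners of henmt1 and tdrd15 did not share their pattern. Of 20 filtered piRNA pathway genes, these 2 were higher (10%, beside 7.89% of all genes) and tdrd7a, ddx4 and tdrd6 were lower (15%, beside 9.79%), with a list median of -0.31. The 2 higher genes were chosen on these same values, and the list was written after the members had been seen. tdrd7a, which organises germ granules, was at 1319, 916 and 296 at 11 hpf and 241, 198 and 287 at 24 hpf. tdrd9 was at 0, 25.5 and 13.4 at 24 hpf and listed at 0 in the 3 cells at 11 hpf, and piwil1, the Piwi protein Ziwi, was at 30.2, 0 and 14.6. Both were listed at 0 in 1 of the 3 cells at 24 hpf and could not meet the rule. piwil1 had also been at 2.97 in 6_2, 12.7 in 6_3 and 20.2 in 11_3, so it missed the earlier part of the rule too. tdrd9 had been at 11.7 in 6_3.

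The other meiosis genes were more varied than mei4. Of 12 filtered germ cell differentiation genes, mei4 and SYCE3, a protein of the synaptonemal complex, were higher (16.7%, beside 7.89% of all genes) and none was lower, with a median of 0.25. On a wider list of 11 filtered genes of meiotic recombination and chromosome axes, the same 2 genes were the only higher ones (18.2%), which adds no further gene. The wider list was written after the members had been seen. mei4 counts in both shares and was chosen on these same values. SYCE3 was at 62.6, 66.9 and 44.9 at 24 hpf, but 6 hpf cells had already held 62.6, 22.1 and 22.8. msh4, which acts in meiotic crossing over, was listed at 0 in all 6 earlier cells and at 14.9, 15.7 and 0 at 24 hpf, so it was seen in too few cells for the filter. sycp1, which joins paired chromosomes, was at 0, 2.87 and 2.33. The egg coat gene zp2.1 had the highest mean of the list at 24 hpf, with 33.8, 88.9 and 76.9, and was present in all 9 cells. figla and zp3b, both known from oocytes, were at 0, 0 and 73.6 and 0, 28.1 and 32.9, each listed at 0 in at least 1 cell. The oocyte growth factors gdf9 and bmp15 had no value above 0 at 24 hpf.

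**Figure D3:**
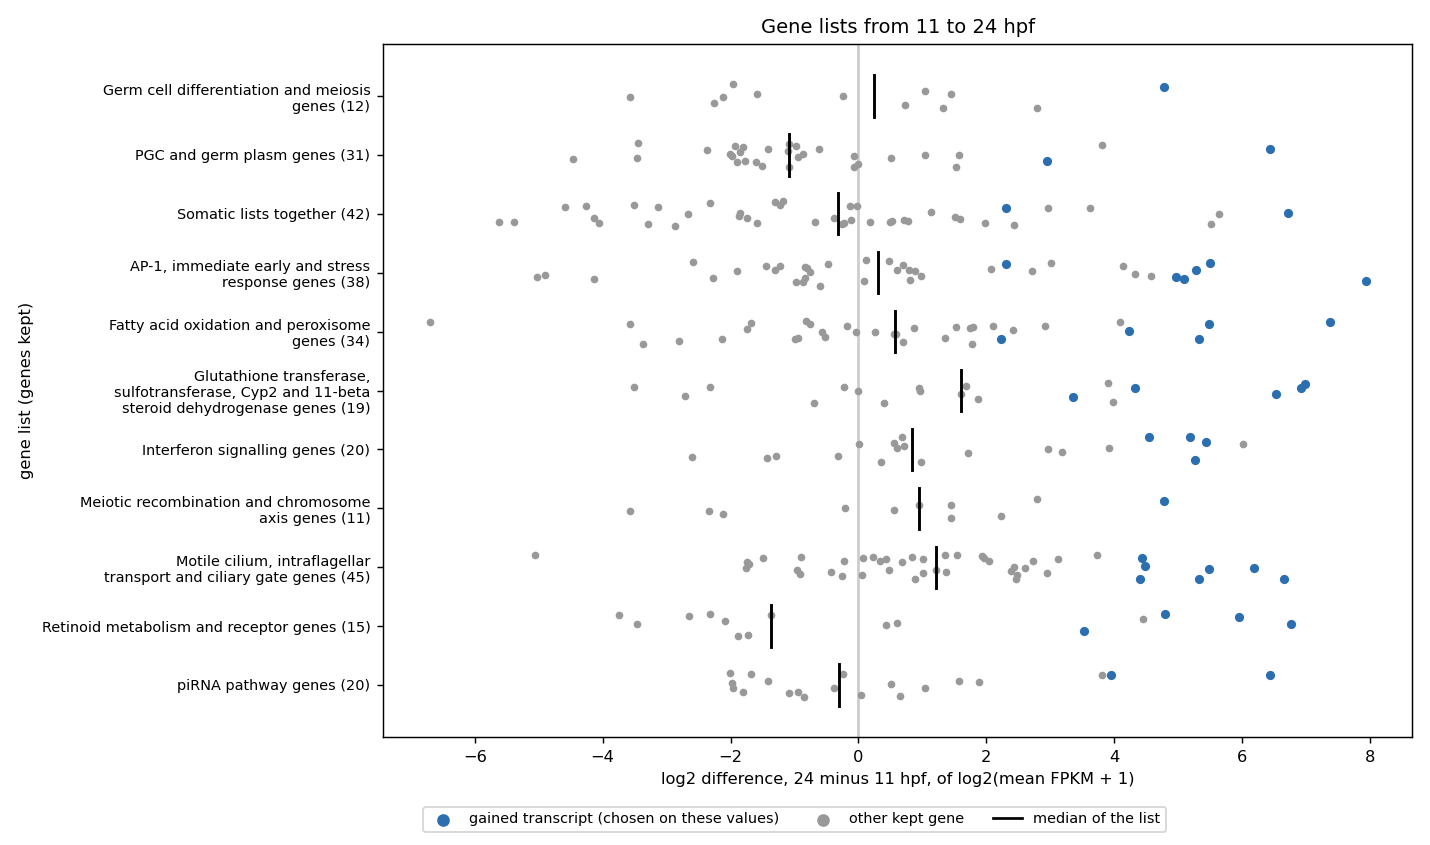
log2 difference between 11 and 24 hpf of log2(mean FPKM + 1), 1 point per filtered gene, for the 2 germline lists, the 11 somatic lists together and 8 further lists (number of genes in brackets), with gained transcripts in blue and list medians as black bars. The PGC and germ plasm list has its median at -1.09 with 2 gained genes on the right. All blue points, these 2 included, were chosen by the rule on these same values.

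Somatic marker genes took 2 places in the set. Over 11 lists of markers of other embryonic cells, 42 genes passed the filter, 3 were higher (7.14%, beside 7.89% of all genes), 7 were lower (16.7%, beside 9.79%) and 2 were gained transcripts (4.76%, beside 1.31%), fabp7a and cebpb. The higher genes were fabp7a, the neural gene stmn1b and the notochord marker epyc, which was at 28.2, 46.4 and 15.3 at 24 hpf and between 0 and 8.44 in the earlier cells. fabp7a, a fatty acid binding protein known from radial glia of the brain, was listed at 0 in all 6 earlier cells and at 108, 144 and 60.9 at 24 hpf. The next genes of the neural list by mean were low or listed at 0 in 1 of the 3 cells: stmn1b was at 61, 73 and 1.0, ascl1b at 0, 39.3 and 50, gap43 at 0, 15.7 and 36 and tubb5 at 0, 25.1 and 41. The neuronal sncb, which is on no list, is a gained transcript as well and was at 72.4, 21.4 and 59.8. The summed FPKM of the neural list was 239.6, 366 and 226 at 24 hpf and between 81.3 and 204 in the earlier cells. These sums include fabp7a, which was chosen on these same values, so the separation of the stages in them is built in. Without fabp7a, the sums of 24_1 and 24_3 fall within the range of the earlier cells and that of 24_2 lies above it. cebpb, on the list of macrophage and neutrophil markers, encodes a transcription factor found in many cell types, and its values are given below with the stress response genes.

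Somatic marker genes at 24 hpf appeared mostly in single cells. Of 69 genes of the 11 somatic lists that reached 10 FPKM in any cell at 24 hpf, 48 did so in 1 cell. In all 3 cells 8 did (11.6%), while 14 of 31 germline genes did (45.2%). The share over all genes was not computed, so these counts have no baseline and only describe the lists. Among the germline genes henmt1 and h1fx, and among the somatic genes fabp7a and cebpb, were chosen on these same values. nanos3, dnd1 and ca15b, among the 14, were at 280.4 FPKM or more in each cell at 24 hpf, and the part of level was not tested. Cell 24_2 carried transcripts of gut, liver or yolk cells and of muscle. The endoderm, gut, liver and yolk list summed to 49.3, 1374 and 0 FPKM at 24 hpf, with apoa2 at 0, 358 and 0 and apoa1a at 0, 228 and 0. In the earlier cells this list summed to between 124 and 387. Its gene apoeb went the other way, from between 107 and 387 in the earlier cells to 0.14, 89.1 and 0. The muscle list summed to 99.9, 481 and 77.1, against 72.4 to 159 in the earlier cells, and cav3 and ckma were at 93.4 and 77.5 in 24_2 only. The muscle genes tpma and ckmb were at 30.7, 45.1 and 0 and 8.69, 80.8 and 0, and thus in 24_1 too. The pigment cell gene tyr was at 86.5 in 24_1 only, and irf8 and coro1a of the macrophage list were at 124 and 33.3 in 24_3 only. The highest of the MFAP4 copies on that list was at 100.2, 21.2 and 0, with no earlier value. Markers of the gonadal soma summed to 7.67, 0 and 21.3 FPKM at 24 hpf and to between 19.6 and 115 in the earlier cells. The earlier sums came only from cxcl12a, cyp17a1 and hand2. cxcl12a was at 91.5, 96.1 and 51.1 in the 6 hpf cells, and hand2 was at 63.4 in 11_1 alone. Of the 22 genes of this list in the table, only 5 had a value above 0 in any cell, so its sums rest on few genes. Among these markers gata6 had the highest mean at 24 hpf. Since the rule asks for all 3 cells, a transcript carried by 24_2 alone could not enter the set, and its part in the level of a member was not tested.

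**Figure D4:**
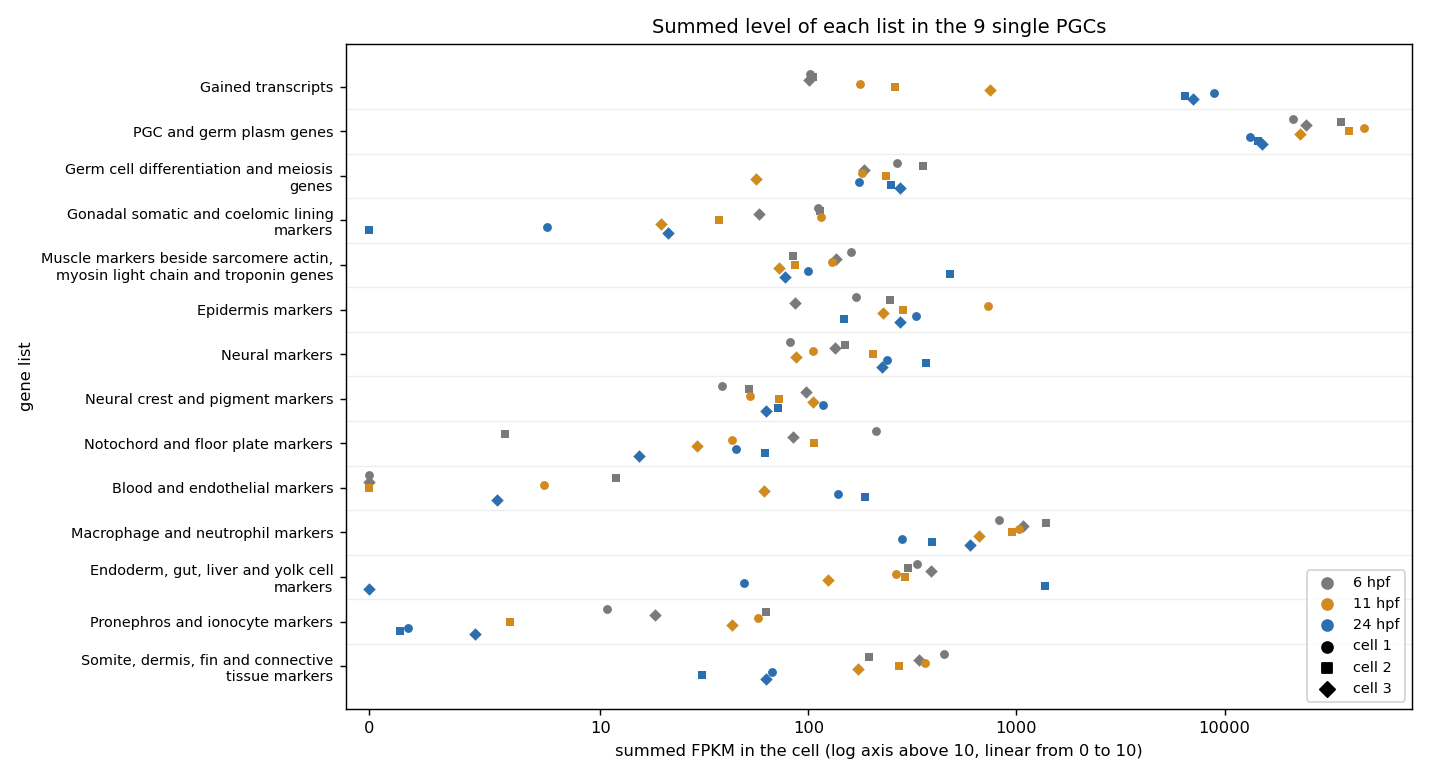
Summed FPKM of the 122 gained transcripts, the 2 germline lists and the 11 somatic marker lists in each of the 9 PGCs (colour for stage, shape for cell, log axis above 10). The endoderm, gut, liver and yolk list reaches 1374 in 24_2 and 0 in 24_3, and lies between 124 and 387 in the earlier cells. The gained transcripts sum to between 6477 and 8861 in the 3 cells at 24 hpf, where the rule required each of them.

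The gained transcripts crfb1, irf9, irf2 and ifi35 belong to interferon and cytokine signalling. In this pathway a class II cytokine receptor signals to a complex that contains IRF9 and switches on interferon-stimulated genes. The receptor subunit crfb1 was at 35.6, 7.64 and 84.1. The transcription factor irf9 was at 72.3, 96.8 and 203 and highest in 24_3. irf2, an interferon regulatory factor, was at 19.5, 28.4 and 64, also highest in 24_3. ifi35, an interferon-induced gene, was at 59.6, 11.8 and 35.5. crfb1, irf2 and ifi35 were listed at 0 in all 6 earlier cells, and irf9 was at 13 in 11_1. crfb1 was the least even gene of the set, with a ratio of 11 between its highest and lowest cell at 24 hpf.

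On a list of 20 filtered interferon signalling genes, written after the members had been seen, 6 were higher (30%, beside 7.89% of all genes). None was lower (beside 9.79%). Of the 6, 4 were gained transcripts, chosen on these same values. The additional 2 were proteasome genes: psme2, an activator of the immunoproteasome, at 154, 11.4 and 58, and PSMB10, one of its catalytic subunits, at 125, 75 and 171. psme2 met both thresholds of the rule and was removed for its name alone. Its highest value in an earlier cell was 0.419, while PSMB10 had been at 45.1 in 11_3. Macrophage and neutrophil markers summed to 283, 394 and 599 at 24 hpf, less than in any of the 6 earlier cells, where the lysosomal ctss2.1 took most of the sum. The number of these markers at 10 FPKM or more went the other way, with 5 in each cell at 24 hpf and 2 or 3 in each earlier cell. The 5 include cebpb in each cell, a gained transcript chosen on these same values, so part of this contrast is built in. In 24_1 they also include cfp, close to that limit at 10.3. irf8 and coro1a lay in 24_3 only, the cell with the highest crfb1, irf2 and irf9, while MFAP4 lay in 24_1 and 24_2, and their part in these values was not tested.

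Stress and immediate early response genes held 6 places. fosab, the Fos subunit of AP-1, had the highest mean of the whole set, 364 ± 324 FPKM (SD, n = 3 cells), from 249, 114 and 729.8, and the only earlier value was 1.47 in 11_2. jdp2b, a bZIP partner of AP-1 proteins, was at 25.6, 69.5 and 18.5, with 6.18 in 6_3. gadd45ba, a growth arrest and DNA damage inducible gene, was at 39.5, 19.1 and 74.7, but also at 26.2 in 6_1. cebpb was at 84.4, 32.4 and 67.4 and at 33.1 in 11_3, between the values at 24 hpf. tsc22d3, known in mammals as a glucocorticoid-induced leucine zipper, was at 41.1, 19.6 and 38.5 and listed at 0 before. csrnp2, a nuclear protein with a cysteine- and serine-rich region, was at 6.66, 28.9 and 63, a 9.46-fold range.

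Other members of that response were not gained. A list of 38 filtered AP-1, immediate early and stress response genes was written after the members had been seen. On it, 5 were higher (13.2%, beside 7.89% of all genes), all of them gained transcripts, and 2 were lower (5.26%, beside 9.79%). The lower genes were the heat shock genes hsp70.3, at 145, 64.9 and 119.8 at 11 hpf and 2.83, 4.35 and 0 at 24 hpf, and hsp70.2, at 29.8, 15.1 and 22.9 and 2.8, 13.2 and 0. The list median was 0.30. The trunk at 24 hpf was minced before cells were picked, and handling and age cannot be told apart for these genes.

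The largest functional group beside the secretory pathway was lipid, retinoid and steroid metabolism with 13 genes, 8 of them below 1 FPKM in all earlier cells. Peroxisomal fatty acid breakdown was represented by acaa1, its thiolase, at 222, 178 and 98.3 and listed at 0 in all 6 earlier cells. phyh, which starts the breakdown of phytanic acid, was at 26.9, 13 and 13.4, also with no earlier value. The sterol carrier scp2a was at 52, 51.4 and 39 and the thioesterase acot13, which frees fatty acids from coenzyme A, at 229, 54.8 and 76.9, and each had an earlier value in 11_3 (28.1 and 5.15). HACD1, a dehydratase of fatty acid elongation, was at 19.9, 6.21 and 12.3 and had been at 25.4 in 11_3.

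Some neighbours of these genes on the pathway were higher at 24 hpf, and most did not meet the count. A list of 34 fatty acid oxidation and peroxisome genes was written after the members had been seen and had a median of 0.58. On it, 9 were higher (26.5%, beside 7.89% of all genes) and 2 lower (5.88%, beside 9.79%). Of the 9, 5 were gained transcripts, etfdh included, chosen on these same values. The other 4 were present earlier: acadm, the medium-chain dehydrogenase, was at 77.4, 10.8 and 52.9 at 11 hpf and 325, 259 and 188 at 24 hpf, and etfb, which passes its electrons on, at 49.4, 96.5 and 117 and 280.1, 338 and 271. decr1 and hadhaa were at 104, 53.8 and 61.2 and 51.6, 54.4 and 70.8 at 24 hpf. echs1, the hydratase of the same mitochondrial cycle, was at 223, 186 and 175 at 11 hpf and 0, 0 and 2.62 at 24 hpf, and hadhb was lower as well.

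Genes for retinoid handling formed a set of 4. Vitamin A is carried by retinol binding proteins and converted between retinol and retinal by short-chain dehydrogenases before retinoic acid is made. rbp5, a cellular retinol binding protein, was at 16.8, 46.5 and 119.9, highest in 24_3. dhrs3b, a retinal reductase, was at 165, 97.7 and 62.1, with the opposite order of cells. dhrs13l1, of the same dehydrogenase family, was at 32.9, 37.1 and 10.7. All 3 were listed at 0 in the 6 earlier cells. rdh12, a retinol dehydrogenase, was at 145, 80.1 and 77.1 and at 23.4 in 11_2. These 4, chosen on these same values, were the only higher genes among 15 filtered retinoid genes (26.7%, beside 7.89% of all genes). The list was written after the members had been seen. Of the 15, 1 was lower (6.67%, beside 9.79%), the receptor rxrba, and the list median was -1.37.

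Steroid and xenobiotic enzymes gave 5 members. hsd11b1la, of the 11-beta hydroxysteroid dehydrogenase family, was at 248, 48 and 63.5 and the sulfotransferase sult2st1 at 127, 95.8 and 52.5, with no earlier value for either. The cytochrome P450 cyp2aa7 was at 71.4, 188 and 234 and at 21.6 in 11_3. The glutathione transferase gsta.1 was at 81.3, 203 and 91.6 and its near copy gsta.2 at 5.92, 13.8 and 7.94, both listed at 0 before. The ratio of these copies may depend on how reads were shared between them. These 5, chosen on these same values, made up all higher genes on a list of 19 filtered transferase, P450 and steroid dehydrogenase genes. The list was written after the members had been seen. Its share of higher genes was 26.3%, beside 7.89% of all genes, and none was lower (beside 9.79%).

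**Figure D5:**
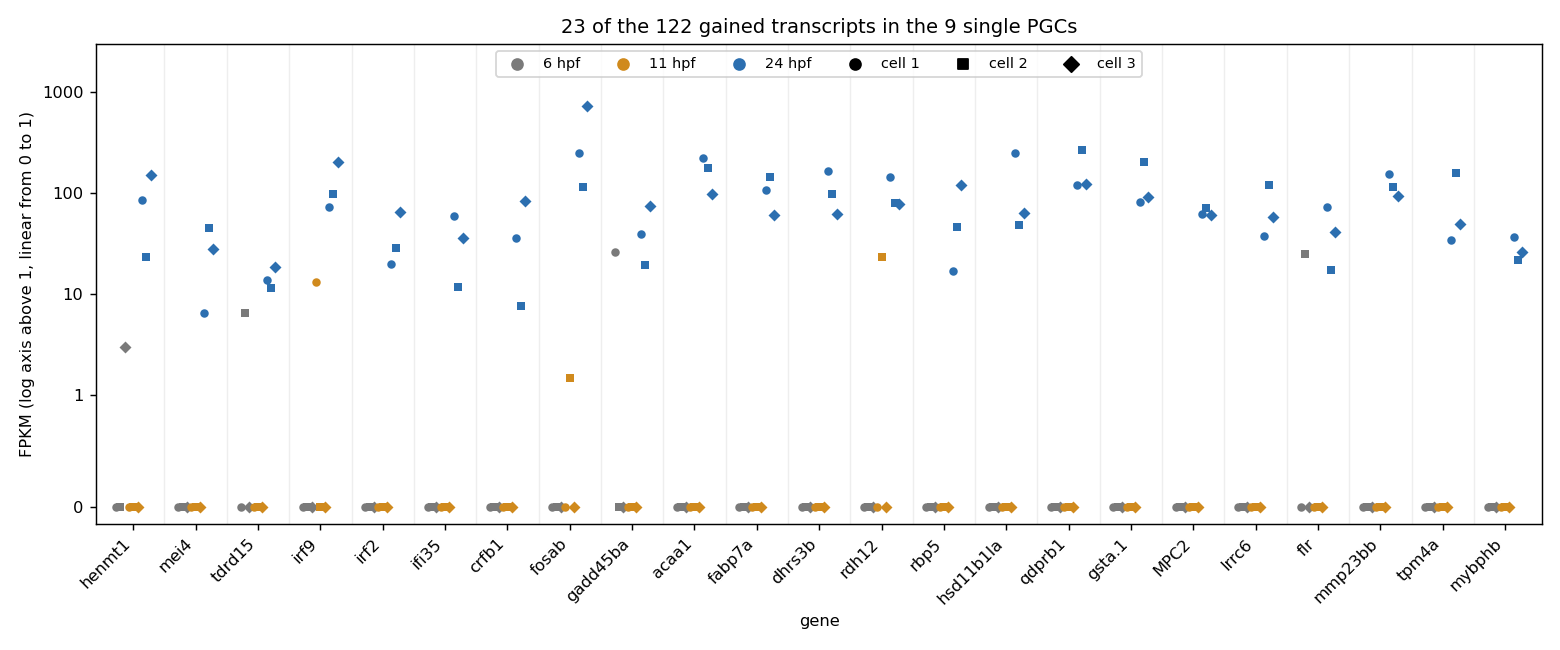
FPKM of 23 gained transcripts in the 9 PGCs (colour for stage, shape for cell, log axis above 1, genes in the order of their roles). All 3 cells at 24 hpf lie above 5 by the rule. MPC2 is even among them, while crfb1 runs from 7.64 to 84.1.

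Redox and small molecule metabolism held 8 genes, gsta.1 and gsta.2 above among them. qdprb1, the reductase that regenerates tetrahydrobiopterin, had the highest minimum of the set, with 121, 268 and 122 at 24 hpf and 0 in all 6 earlier cells. gapdhs, named after the glyceraldehyde-3-phosphate dehydrogenase of mammalian sperm, was at 359, 124 and 104 and at 53.8 in 11_3. The amidase nit2 was at 220.5, 57 and 114, with no earlier value. fam213aa, a peroxiredoxin-like gene, was at 90.5, 78.1 and 19.2. aco1, the cytosolic aconitase that also serves as an iron sensor, was at 17.9, 21.2 and 7.19. soul3, a haem-binding family gene, was at 90.3, 62.5 and 37. fam213aa, aco1 and soul3 each had 1 earlier value, and those of fam213aa (37.1) and soul3 (44) lay within their range at 24 hpf. None of the gained transcripts was on the list of 37 filtered redox, glutathione and iron genes (0%, beside 1.31% of all genes). Of these 37, 7 were higher (18.9%, beside 7.89% of all genes) and 4 lower (10.8%, beside 9.79%).

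Mitochondrial genes numbered 8 although respiratory chain and mitochondrial ribosome families had been removed by name. CABZ01076616.1 stayed in because its table name hides the newer symbol NDUFB1, a subunit of complex I. It was the most even gene of the set, with 113, 129 and 114 and a ratio of 1.15, and was at 56.4 in 11_1. MPC2, a subunit of the carrier that brings pyruvate into mitochondria, was at 62.3, 71.3 and 60.9 and listed at 0 in all earlier cells. tmem186, a mitochondrial membrane protein, was at 106, 81.8 and 78.9, and the peptide deformylase pdf at 80.6, 67.1 and 54.2. Both had an earlier value in 11_2, 35.4 for tmem186 and 40.6 for pdf. The lipid transfer gene prelid1b was at 107, 22.9 and 61.4. etfdh, which hands electrons of fatty acid oxidation to ubiquinone, was at 50.1, 51.3 and 15.8, and had been at 15 in 6_2. MALSU1, a mitochondrial ribosome factor, at 63, 115 and 72.5, and sco1, a copper chaperone of cytochrome oxidase, at 24.2, 61.4 and 46.1, differed from 11 hpf by 1.02 and 0.32 on the log2 scale, since each had a single high cell at 11 hpf.

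Cilium, centrosome and tubulin genes made up 9 of the set. lrrc6 (DNAAF11), needed to assemble the dynein arms of motile cilia, was at 37.1, 121 and 57.9, and tpgs2, a subunit of a tubulin polyglutamylase, at 214, 50.1 and 36.5. flr (IFT70A), of the intraflagellar transport machinery, was at 72.8, 17.3 and 41.2, and its value of 24.7 in 6_2 lay within that range. tctex1d2, a light chain of its dynein motor, was at 43, 28.7 and 44.9, and the centriole protein cep19 at 23.3, 57.1 and 36.7. The ciliary gate gene tmem237a was at 8.76, 46.1 and 9.25 and the kinase cdk20 at 5.84, 38.5 and 16.5. The tubulins tuba1a and zgc:153426 (tubb4bl) were at 44.5, 19.1 and 26.3 and 95.7, 31.9 and 55.1, and tubulin copies are alike enough that reads may be shared between them. Of the 9 genes 5 were below 1 in all earlier cells.

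A list of 45 filtered cilium genes was written after the members had been seen and had a median of 1.21. It held 11 higher genes (24.4%, beside 7.89% of all genes) and 2 lower (4.44%, beside 9.79%). Of the 11, 7 were gained transcripts, chosen on these same values. The 4 others were dync2li1 at 143, 59.5 and 195, the radial spoke gene RSPH1 at 114, 211 and 70.5, the gate gene b9d1 at 137, 45 and 101 and the dynein light chain dnal4a at 50.9, 112 and 39.2. Each of these had been above 1 FPKM in at least 3 earlier cells, and none entered the set. The cilium transcription factor foxj1a had no value above 0 at 24 hpf.

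The secretory pathway and lysosome gave 14 genes. pigf, which adds ethanolamine phosphate to GPI anchors, was at 92.7, 119 and 189, after 50.6 in 11_3. The cargo receptors tmed4 and lman2la were at 33.2, 68.8 and 45.8 and 115, 63.5 and 22.7. crtap, a helper of collagen proline hydroxylation, was at 56.6, 73.1 and 126. The lysosomal or vesicular peptidase dpp7 was at 142, 31.3 and 82, after 32.7 in 11_3, and the cysteine protease ctsf at 35.1, 25.5 and 7.36. scamp5a, a vesicle carrier protein, was at 57.5, 72.2 and 40.5. The palmitoyl transferase zdhhc23b was at 27.8, 37.4 and 129, and its value of 38.5 in 6_3 lay within that range. The other 6, nucb2a, b3gnt3, tmtc4, fkbp11, txndc16 and slc35e1, had means between 9.12 and 59.6 FPKM, and 4 of the 14 did not count as higher, each through 1 cell at 11 hpf. On lists of 45 genes for protein entry into the endoplasmic reticulum, 50 for vesicle coats and 40 for lysosomes, 0, 1 and 1 were gained. These are 0%, 2% and 2.5%, beside 1.31% of all genes. On the same lists 4, 5 and 2 genes were higher (8.89%, 10% and 5%, beside 7.89% of all genes).

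Genes of the cell surface and matrix were 6 in all. mmp23bb, a matrix metalloproteinase, was at 154, 116 and 93.8. The microfibril gene mfap2 was at 102, 34.7 and 32.3, and mxra8a, named for matrix remodelling, at 13.6, 11.4 and 9.92. The adhesion gene alcama was at 5.55, 23.3 and 10.2. FAM19A2 (tafa2), a secreted protein, was at 72.6, 36.1 and 18.5. All 5 were listed at 0 in the 6 earlier cells. bambib, a decoy receptor for Bmp and activin, was at 39.2, 44.1 and 115, and at 40.9 in 11_3. On the list of 42 somite, dermis and connective tissue markers in the table only 3 passed the filter. Of these, 2 were lower (66.7%, beside 9.79% of all genes). sparc and col1a2, abundant messages of connective tissue, had means of 5.62 and 4.73 FPKM at 24 hpf, from 0, 2.49 and 14.4 and 14.2, 0 and 0. tcf15 had the highest mean of that list at 24 hpf, with 37.4, 0 and 40, and had been at 84.4 in 6_1 and 52.6 in 11_3.

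Actin and muscle-type genes were 3, after actin, myosin light chain and troponin names had been removed. tpm4a, a tropomyosin, was at 34.3, 159 and 49.2, highest in 24_2, the cell with the highest muscle sum. mybphb, a myosin-binding protein known from muscle, was at 36.8, 21.7 and 26 and was lowest in that cell. The unconventional myosin MYO1D was at 8.51, 10.2 and 7.25. The fast-muscle troponin tnnc2, which had met the thresholds and was removed by name, was at 27.5, 22.2 and 5.45. Of the muscle markers, cav3 and ckma were listed at 0 in 24_1 and 24_3, while tpma and ckmb were listed at 0 in 24_3 alone of these 3 cells.

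Chromatin and transcription genes numbered 7. med17, a core subunit of the Mediator complex, was at 144, 72.5 and 40.4 and listed at 0 in all earlier cells. It was the 1 gained transcript among 71 RNA polymerase and general transcription genes (1.41%, beside 1.31% of all genes). Of these 71, 8 were higher (11.3%, beside 7.89%) and 2 lower (2.82%, beside 9.79%). The histone gene hist2h2l was at 103, 113 and 54.5, and h1fx has been given above. The ETS factor elf2a was at 41.9, 20.6 and 19.5 and mef2aa, of the Mef2 family known from muscle and neurons, at 5.56, 21.5 and 19.8, both with no earlier value. si:ch211-194b1.1 (wizb), a zinc finger gene, was at 12.8, 10.9 and 11.9, and the zinc finger and homeobox gene zfhx4 at 6.83, 14.4 and 6.29.

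DNA replication and chromosome genes were 4. POLD4, the small subunit of DNA polymerase delta, was at 199.8, 73.8 and 48.7 and listed at 0 earlier. si:dkey-148h10.5 (itgb3bp), a centromere protein, was at 96.5, 24 and 77.9. tti2, which stabilises the kinases of DNA damage signalling, was at 60.6, 10 and 88.7, and the telomere gene ctc1 at 13.3, 7.14 and 35.6. Each of the latter 3 had an earlier cell above its lowest value at 24 hpf.

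The 5 RNA processing genes all had an earlier value. rtcb, the ligase of tRNA splicing, was at 136, 94.9 and 14.4. ints8 and cpsf3l (INTS11) are subunits of Integrator, the complex that cuts small nuclear RNAs, and were at 15.6, 29.1 and 23.1 and 5.38, 31.5 and 34.4. gemin6, which helps to build splicing particles, was at 5.07, 17.8 and 25.2, and fam46bb, of the TENT5 family of poly(A) polymerases, at 34.8, 7.8 and 6.55.

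Ubiquitin and signalling genes were 8. phlda2, with a lipid-binding PH domain, was at 213, 53.1 and 159. commd6, of a family that works with cullin ubiquitin ligases, was at 193, 55.6 and 123. zgc:114174 (fbxo44.7), an F-box gene, was at 106, 74.7 and 121. The Rab GTPase activator grtp1a was at 97.5, 23.3 and 53.1 and the Arf GTPase activator adap2 at 91.6, 39.1 and 13.9. spata2, an adaptor of deubiquitination first found in testis, was at 18.3, 35.3 and 38.4, while its value in 11_3 was 72. The deubiquitinase usp38 and the G protein subunit gnb2 had means of 20.9 and 23.2. None of 59 filtered ubiquitin and ubiquitin-like genes was gained, beside 1.31% of all genes, a share at which a list of this size can hold none. Of these, 7 were higher (11.9%, beside 7.89% of all genes) and 1 lower (1.69%, beside 9.79%). The shorter list of 35 actin regulators and small GTPases held no gained gene either, with 4 higher (11.4%, beside 7.89%) and 2 lower (5.71%, beside 9.79%). The same held for 31 growth factor, Notch, Wnt, Bmp and Hedgehog signalling genes, with 1 higher (3.23%, beside 7.89%) and 5 lower (16.1%, beside 9.79%).

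Of the remaining named genes, endouc was highest, at 252, 57.7 and 61.1. lhfpl2b was at 15.6, 142 and 63.9, after 32.2 in 11_3, and tmem176 was at 37.3, 44.1 and 72.5. sncb, given above, encodes beta-synuclein of neurons and had no earlier value. aamp was at 69.6, 30.6 and 39.7, after 44.3 in 11_3, and like lhfpl2b it did not count as higher. itfg1, bricd5, cachd1 and fam171a2a had means between 10.3 and 19.1. A further 14 had no assigned role. The highest of these, CABZ01049825.1, was at 539, 313 and 97.7 and had the largest difference of the set, 8.31, from 0 in all earlier cells. The adjacent names si:dkey-34o23.2 and si:dkey-34o23.3 were at 25.5, 24.7 and 28.9 and 69.9, 27.2 and 36.5, and reads may be shared if they are copies of each other. The other 11 had means between 11.1 and 68.6 FPKM.

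The 3 cells at 24 hpf carried the set to unequal levels. Of the 122 genes 60 (49.2%) were highest in 24_1, 35 (28.7%) in 24_2 and 27 (22.1%) in 24_3, where the shares over all 2686 genes were 37.3%, 27.9% and 34.7%. The ratio of the highest to the lowest of the 3 cells had a median of 2.94, against 2.51 over the 2686 genes. It was below 2 for 27 genes and above 5 for 19 (15.6%, against 15.7%). The widest after crfb1 were csrnp2, rtcb (9.4), lhfpl2b (9.09) and tti2 (8.87). Lipid, retinoid and steroid genes were highest in 24_1 for 9 of 13, and the mitochondrial and redox genes were highest in 24_3 for none. The cell 24_1 also lacked the most transcripts that the other cells shared, and the part of this in its higher FPKM for the set was not tested.

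Values lay close on both sides of the thresholds. Just inside were gemin6, fam171a2a and cpsf3l, with lowest values at 24 hpf of 5.07, 5.21 and 5.38 FPKM. Just outside were atg12 (4.83), mettl9 (4.21) and CR749763.4 (4.1). gart, smad9 and pon3.2 stayed out because a second earlier cell reached 1.34, 1.6 and 1.88 FPKM.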

How the data were processed

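RNA of single PGCs was amplified by a form of Smart-seq2, and 9 libraries were sequenced. Per the labels, reads trimmed by Trimmomatic were mapped by HISAT2 2.0.5 to danRer10 (GRCz10), and StringTie 1.3.3 gave the level of each Ensembl gene. The authors deposited these levels as FPKM, 1 value per gene and cell, unfiltered and without counts or coordinates, so the depth behind a gene and its counting error are unknown.

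The families were removed by the start of the gene name, ignoring case. Comparisons used genes that reached 1 FPKM in 3 or more cells, on log2 of the mean FPKM plus a pseudocount of 1. Spread is the root of the summed squared SDs of log2(FPKM + 1) in both stages. No test was run, since each stage is 1 embryo. Values were computed with Python 3.11.15, numpy 2.4.6 and pandas 2.3.3, drawn with matplotlib 3.10.9, and the calculations were tested on simulated data.

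The members, the 2 germline, 11 somatic and 8 process lists were chosen with earlier results of these data known. Role groups and the 8 added lists (interferon, AP-1, retinoid, fatty acid, transferase, cilium, piRNA and meiotic recombination genes) were written after the members had been seen, and support nothing. The genes named are the 12 with the highest minimum at 24 hpf, those on a list, those near the thresholds, the 5 with the highest earlier value, the 5 with the widest range at 24 hpf, and up to 6 a role group by mean. Of the germline and somatic lists, up to 5 genes were named by mean at 24 hpf. Other genes named were chosen after their values were seen. Newer symbols come from a table of gene names, which matched 115 of the 122 by identifier. No reference sequence was used here, and 1 member is not reported here. Alternatives were other thresholds, pseudocounts and scalings, no filter, and leaving out each cell in turn.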

Additional observations from a re-analysis of the deposited data

How the results depend on the processing

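No paired analysis was possible because the results come from no test and cells of different stages come from different embryos. The size of the set depended on the rule: it held 55 genes when all 6 earlier cells had to be below 1 FPKM and 209 when 4 sufficed. Leaving out a cell relaxes the rule, so all 122 stayed by construction and the number ran from 143 to 307: it was 307 without 24_1, 239 without 24_2 and 299 without 24_3. Between 97 and 156 genes were found under the other thresholds and scalings. TPM scaling kept 99.2% of the 122, median-of-ratios scaling 93.4%. The median log2 difference of the set from 11 to 24 hpf was 7.83 with a pseudocount of 0.1, 2.17 with 10, 5.36 as TPM and 4.51 with median-of-ratios factors, and 4.65 to 5.23 leaving out a cell. The median of all filtered genes moved from -0.08 to -0.17 as TPM and -0.18 with those factors, and the set lay 5.54 and 4.69 above it. Leaving out 11_3 moved the difference of 17 members by more than their spread, and leaving out a 24 hpf cell that of 0. The pseudocount mattered more: 0.1 moved 79 of the 122 by more than their spread and 10 moved 87. TPM scaling moved 30 and median-of-ratios scaling 5. The germ plasm list kept its direction, from -1.42 to -0.86 over all alternatives. The germ cell differentiation list did not: -0.03 with a pseudocount of 10, and -0.42 to 0.36 leaving out a cell, the lowest without 24_1. Without a filter the median of the macrophage and neutrophil list was 0.37 instead of -1.18. With 1 embryo a stage, embryo differences cannot be seen, and a value of 0 in a single cell does not show that a transcript was absent.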

Other observations

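The 5 genes that met both thresholds and were removed by family name reached levels like those of the set. mrps17, a mitochondrial ribosomal protein, was at 108, 206 and 367 FPKM in 24_1, 24_2 and 24_3 and at 38.4 in 11_2. cox10, which makes the haem A of cytochrome oxidase, was at 101, 71.6 and 120.2, and the proteasome subunit psma6l at 66.5, 60.6 and 41.5, both listed at 0 in all 6 earlier cells. psme2 and tnnc2 are described above. The name rule was applied to the names in the table, so NDUFB1 stayed in the set under its clone name.

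With 6 hpf as the high stage, the same thresholds gave 156 genes. btg4, which takes part in the clearance of maternal messages, had the highest minimum of these, at 726, 763 and 364 FPKM in the 3 cells at 6 hpf, and was listed at 0 in all 3 cells at 24 hpf, with 25.5 in 11_1. With 11 hpf as the high stage there were 45, led by mis18a, which prepares centromeres for new histones, at 82.4, 63.8 and 173 FPKM at 11 hpf, 53.9 in 6_2 and 0 in all 3 cells at 24 hpf.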
